A study of Mus musculus with 2 samples.

Results

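Single RNA molecules of 500 genes were located by MERFISH, an imaging method that decodes barcoded transcripts in tissue, and the question here was which transcripts lay near the centre of their cell and which lay towards its edge. The data are 2 sections of mouse liver, labelled as replicates 1 and 2 of a single group. Their labels carry the tag 2d, whose meaning was not interpreted. The livers were snap frozen and cut at 10 µm, and the labels give no strain, genotype, age or treatment and leave unsaid how many animals the sections represent. The series' design text describes mice with liver metastases treated with TA33 or TA33.Combo, which the labels of these sections do not mention, and no treatment was assigned. All comparisons are between places within cells of the same section.

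Distance was measured in the plane of the section from each transcript to the deposited centre of its cell. Transcripts within 4 µm of the centre are called near, and those beyond 6 µm are called peripheral. Of 1453337 decoded transcripts 903768 were of genes and lay in a segmented cell, and 689903 of these lay in the 25499 of 111966 cells that passed both minimums, 10 gene counts and 50 cubic µm of volume. Of these, 272157 were near and 181979 peripheral, which made up the 454136 transcripts compared, while 235767 lay between 4 and 6 µm and entered neither zone. Section 1 gave 167466 near and 96056 peripheral transcripts in 9209 cells, and section 2 gave 104691 and 85923 in 16290 cells. The share near the centre was therefore 63.5% in section 1 and 54.9% in section 2, and gene shares are read against these values within each section.

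In liver, messenger RNAs of secreted proteins are translated on the rough endoplasmic reticulum, a membrane network in the cytoplasm, whereas RNAs of cytosolic and nuclear proteins are mostly translated on free ribosomes. Newly made transcripts are found in the nucleus before export, so RNAs that turn over quickly can have a large nuclear part. Hepatocytes, the main cells of liver, export most plasma proteins, and early in life the liver also holds blood-forming cells. The centre used here is that of the segmented outline, not of the nucleus, and the positions of nuclei were not used here.

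The zones depend on the size and the outline of a cell. The median cell was about 6.30 µm from centre to side of its bounding box in section 1 and 6.73 µm in section 2. Only 5539 of the cells of section 1 and 11157 of those of section 2 held transcripts in both zones. Of the peripheral transcripts 32.8% in section 1 and 47.4% in section 2 lay nearer to the centre of another cell than to their own, against 0.416% and 0.517% of the near ones. Blank barcodes, which name no gene, had a near share of 61.0% in section 1 (95% Wilson interval 58.6% to 63.3%) and of 59.5% in section 2 (55.6% to 63.3%). Without the transcripts that lay nearer to another centre, the test on all kept cells described next called 7 central and 6 peripheral genes, and its 10 original calls all kept their direction, 5 of them past the threshold. The highest blank held 268 and 410 counts in kept cells, which 186 and 102 genes exceeded.

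Transcripts of plasma proteins were shifted towards the cell periphery in both sections. Hp encodes haptoglobin, the haemoglobin-binding acute phase protein. It had 12364 near and 8408 peripheral transcripts in section 1, a near share of 59.5%, and 16224 and 14379 in section 2, a near share of 53.0%. Igfbp2, which encodes a circulating binding protein of insulin-like growth factors, had 6004 near and 4023 peripheral transcripts in section 1 (59.9% near) and 13679 and 12380 in section 2 (52.5%). F2, which encodes prothrombin, had 8970 and 5902 in section 1 (60.3%) and 5228 and 4636 in section 2 (53.0%). Each of these near shares lay below that of all genes in its section.

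On sums per section and zone, 10 of 389 genes passed edgeR's quasi-likelihood test with section as a block (2.57% of genes, Benjamini-Hochberg adjusted p under 0.05), and all 10 were higher at the periphery. The log2 change, near minus peripheral, was -0.42 for Igfbp2 (SE 0.02, edgeR adjusted p = 0.0015), -0.41 for Hp (SE 0.02, edgeR adjusted p = 0.0015) and -0.39 for F2 (SE 0.03, edgeR adjusted p = 0.0042). The fibrinogen chains Fgb and Fga, whose products form the clot, stood at -0.36 (SE 0.03) and -0.41 (SE 0.06), and Apoh, which encodes a phospholipid-binding plasma protein, at -0.45 (SE 0.06). Igfbp4 stood at -0.33 (SE 0.05), with -0.25 in section 1 and -0.42 in section 2. Outside the list of plasma proteins were Ambp, which encodes the precursor of the plasma proteins alpha-1-microglobulin and bikunin, at -0.43 (SE 0.06), Fn1, which encodes fibronectin, at -0.39 (SE 0.03), and Ctsb, which encodes the lysosomal protease cathepsin B, at -0.46 (SE 0.04). Igfbp4 was the last gene inside the threshold (edgeR adjusted p = 0.039), and Lrp1, an endocytic receptor, was the first outside it, at -0.31 (edgeR adjusted p = 0.071).

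These changes are relative to the scaling of the sums. TMM scaling put the median of all 389 genes at 0.00. With library totals in its place the median was 0.23, no gene passed as peripheral and 36 passed as central, although all 10 genes still had a negative log2 change. Directions are therefore relative to the typical gene of the panel. With cells of like volume compared as blocks, 15 genes passed as central and 8 as peripheral, and 1 of the 10 was among them. Each gene has 1 residual degree of freedom from 2 sections, and edgeR's quasi-likelihood fit draws its variance towards that of the other genes. The p-values therefore do not measure a gene's own spread between the sections alone, and that spread may be technical. At an unadjusted p under 0.05 there were 49 genes.

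The share of all transcripts that the 17 secreted plasma protein genes on the panel held rose with distance and was lower again in the outermost bin. In section 1 they held 28.1% of transcripts within 2 µm of the centre, 29.4% from 2 to 4 µm, 31.6% from 4 to 6 µm, 33.3% from 6 to 8 µm and 31.8% beyond 8 µm. In section 2 these shares were 44.9%, 46.5%, 48.8%, 50.4% and 49.1%. Ushbp1, named for binding the scaffold protein harmonin, ran the other way and made up 0.79%, 0.65%, 0.48%, 0.42% and 0.41% of transcripts in section 1 and 0.53%, 0.37%, 0.25%, 0.23% and 0.17% in section 2. Ighm, which encodes the immunoglobulin mu heavy chain of B cells, went from 0.84% to 0.38% between the innermost bin and that from 6 to 8 µm in section 1, and from 0.32% to 0.17% in section 2.

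**Figure D1:**
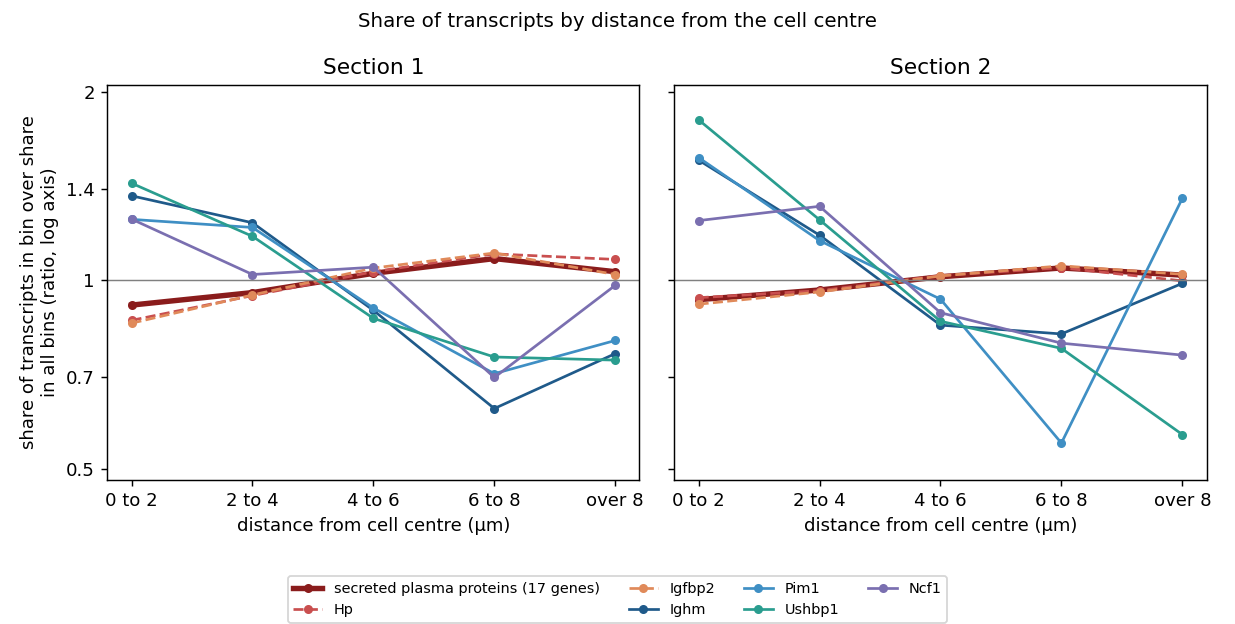
Share of transcripts by distance from the cell centre (x axis, µm) relative to the share over all distances (y axis, ratio on a log axis) for 17 secreted plasma protein genes together, Hp, Igfbp2, Ighm, Pim1, Ushbp1 and Ncf1, with 1 panel for each section and a point for each bin. The secreted genes lie below 1 within 4 µm and above 1 from 4 to 8 µm in both sections, and the other 4 genes lie above 1 within 4 µm, with scattered values beyond 8 µm where counts are few.

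Cells differ in size, in the genes they hold and in how their transcripts split between the zones, so genes were also compared within cells. A Mantel-Haenszel odds ratio with each cell as a stratum sets the near and peripheral counts of a gene against those of all other genes in the same cell. A log2 odds ratio above 0 means that a gene lay nearer the centre than the rest of its cells' transcripts. Its 95% interval covers counting error only, and it carries no test across sections. Of 183 genes with at least 100 transcripts in each section, 42 had an interval above 0 in both sections (23%) and 11 an interval below 0 in both (6.01%), and 136 had the same sign. The median of the 183 genes was 0.23 in section 1 and 0.33 in section 2, so the typical gene itself lay above 0. Across these genes, which are not independent replicates and share cells and depth, Pearson's r between the sections was 0.614 and Spearman's rho 0.625. Blank barcodes pooled stood at -0.49 in section 1 (-0.69 to -0.29) and at -0.07 in section 2 (-0.39 to 0.25), and these intervals cover the values of 9 of the 11 peripheral genes in section 1 and of 10 in section 2. The part of false decoding in those values was not tested.

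Of the 11 genes below 0 in both sections, 7 were secreted plasma proteins. Hp stood at -0.50 (-0.56 to -0.44) in section 1 and -0.35 (-0.40 to -0.30) in section 2. Igfbp2 stood at -0.58 (-0.66 to -0.50) and -0.39 (-0.45 to -0.34), and F2 at -0.45 (-0.52 to -0.39) and -0.32 (-0.41 to -0.24). Apoh stood at -0.64 and -0.39, Fga at -0.54 and -0.23, Fgb at -0.47 and -0.28, and Igfbp4 at -0.20 and -0.17. The other 4 were Ambp at -0.52 and -0.39, Fn1 at -0.49 and -0.17, Col1a1, a chain of the fibrillar collagen of stellate and mesenchymal cells, at -0.37 and -0.36, and Ldha, a cytosolic lactate dehydrogenase, at -0.28 and -0.24. Fn1 and Col1a1 also encode secreted proteins, so 10 of the 11 genes do, and Ldha does not. That wider grouping was made after the values were seen. Genes of secreted proteins were not counted among all genes compared, so the 10 have no background share to be read against. Other genes of secreted proteins did not lie below 0 in both sections, among them Apob, Hc, Proc, Rnase4 and Thbs1. Ctsb did not lie below 0, with 0.07 (0.01 to 0.14) in section 1 and 0.06 (-0.06 to 0.17) in section 2. Both intervals lay below the medians of the 183 genes, 0.23 and 0.33, so it stayed peripheral relative to the typical gene. Of the Ctsb transcripts in section 1, 56.2% lay in the largest of 3 equal volume groups of cells, against 50.6% of those of Hp. The part of cell size in its values was not tested.

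Most genes at the centre were more frequent in cells of other marker classes than in hepatocyte-marker cells. Ighm had 1308 near and 396 peripheral transcripts in section 1 and 274 and 154 in section 2, and stood at 1.39 (1.18 to 1.60) and 1.70 (1.33 to 2.07). Pim1, a serine/threonine kinase induced by cytokines, had 825 and 286 in section 1 and 214 and 109 in section 2, and stood at 1.05 (0.81 to 1.29) and 2.03 (1.57 to 2.49). Ushbp1 had 1154 and 400, and 426 and 182, and stood at 1.11 (0.90 to 1.32) and 1.36 (1.05 to 1.67). For these genes the near share was 76.8% and 64.0%, 74.3% and 66.2%, and 74.3% and 70.1% in sections 1 and 2, each above that of all genes in its section. Itgam, an integrin chain of myeloid cells, stood at 0.92 and 1.13, the erythropoietin receptor gene Epor at 0.95 and 1.02, and Notch1 at 0.88 and 1.16. Of the 42 genes 33 had a higher share of transcripts in cells of other marker classes than in hepatocyte-marker cells in both sections, and 1 a lower share in both. Of all 183 genes compared, 77 had the higher share in the other classes and 68 in hepatocyte-marker cells. Of the 11 peripheral genes 10 had a higher share in hepatocyte-marker cells in both sections.

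A test of the same kind used the expected near and peripheral counts of each gene, computed from the split of the cells that hold it, as the offset in edgeR. Because a gene's own transcripts are part of that split, this draws abundant genes towards 0. With it 50 of 389 genes passed (12.9%), 48 higher near the centre (12.3%) and 2 at the periphery (0.514%), and the median of all genes was 0.20. Ighm stood at 0.87 (SE 0.09, edgeR adjusted p = 0.0014), and its single sections gave 0.80 and 1.02. Pim1 stood at 0.81 (SE 0.11, edgeR adjusted p = 0.0030), Ushbp1 at 0.73 (SE 0.09, edgeR adjusted p = 0.0023) and Dennd4a, which encodes an activator of Rab GTPases, at 0.71 (SE 0.13). Dennd4a stood at 0.86 in one section and 0.28 in the other. Emilin2, which encodes an extracellular matrix glycoprotein, stood at 0.69 (SE 0.12), Fam214b at 0.67 (SE 0.10), Epor at 0.64 (SE 0.09) and Ncf1, a subunit of the phagocyte NADPH oxidase, at 0.63 (SE 0.09). Smaller changes that passed were those of Tcf3, a transcription factor of lymphocyte development, at 0.38, the carbonic anhydrase gene Car2 at 0.36, the tetraspanin gene Cd82 at 0.33, the chemokine gene Cxcl12 at 0.32, Abcc2, an organic anion transporter gene of the bile canaliculus, at 0.31 and the transketolase gene Tkt at 0.29. Apoh at -0.28 (SE 0.07, edgeR adjusted p = 0.036) and Ambp at -0.24 (SE 0.07, edgeR adjusted p = 0.047) were peripheral, and Stmn1, which encodes a regulator of microtubules, lay just outside the threshold (edgeR adjusted p = 0.050). Hp at -0.20 and Igfbp2 at -0.24 did not pass (edgeR adjusted p = 0.12 and 0.074).

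The number of calls with this offset turns on where zero is set and on low counts. With the offset centred on the median gene, 29 genes passed as central and 32 as peripheral. With every gene of at least 1 transcript tested, or in the lowest optical plane alone, 0 passed, with 110 and 44 genes at an unadjusted p under 0.05, and DESeq2 called 12 central and 4 peripheral. In all of these settings every one of the 50 genes that was tested kept its direction. Of the 50, 22 held more transcripts than the highest blank in both sections, as did all 10 of the genes that passed without the offset.

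Grouped by where the protein goes, plasma proteins gave 7 of the 10 peripheral calls. Of 14 tested plasma protein genes 7 passed as peripheral and 0 as central in all kept cells, with a median of -0.35 against 0.00 over all genes tested. With the within-cell offset 1 passed, and the median was -0.20 against 0.20. Of the 11 with enough transcripts for the odds ratio, the 4 that did not lie below 0 in both sections were Apob, Hc, Proc and Rnase4. Of 9 tested enzymes of the endoplasmic reticulum 0 passed in either comparison, with medians of -0.25 in all kept cells and -0.07 with the offset. In all kept cells the median of these enzymes was thus close to that of the plasma proteins. Among them G6pc, the glucose-6-phosphatase of that membrane, had intervals above 0, at 0.30 (0.04 to 0.57) and 0.45 (0.04 to 0.86). These intervals include the medians of all 183 genes, 0.23 and 0.33. Of 6 extracellular matrix genes Fn1 passed as peripheral in all kept cells, and Thbs1, which encodes thrombospondin, had odds ratios above 0, at 0.33 and 1.21. Thbs1, Emilin2 and Cxcl12 encode secreted proteins too, and none of them was peripheral.

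The other destinations gave 0 peripheral calls with the within-cell offset, and plasma proteins gave 1. Over all 389 genes 2 (0.514%) were peripheral and 48 (12.3%) central, so 0 lies close to the share over all genes. Of 14 cytosolic enzymes 2 passed as central, Car2 and Tkt, and of 4 mitochondrial enzymes 0 passed. The medians of these lists were -0.28 and -0.26 in all kept cells, against -0.35 for the plasma proteins, and -0.04 and 0.03 with the offset. Of 9 membrane transporters and adhesion genes 3 passed as central, Abcc2 and the leukocyte integrin chains Itgam at 0.58 (SE 0.11) and Itgb2 at 0.53 (SE 0.10). Of 19 signalling receptors 5 passed as central, among them Epor, Notch1 at 0.61 (SE 0.09) and the Wnt co-receptor gene Lrp5 at 1.06 (SE 0.18). Of 7 short-lived response genes 2 passed, Pim1 and Btg2, an antiproliferative early response gene at 0.60 (SE 0.08), and the list median was 0.47 against 0.20 for all genes. Of 4 cell cycle genes Mki67, the proliferation marker, passed at 0.44 (SE 0.08), and of 13 transcription factors 0 passed. The receptors and integrins among these are membrane proteins, whose RNAs are also translated at the endoplasmic reticulum.

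The contrast between secreted and other proteins was then drawn within one cell type's genes. The hepatocyte marker list holds 8 plasma protein genes and 14 others on the panel, and only their transcripts were compared, so that genes of other cells do not enter. In hepatocyte-marker cells the plasma protein genes had a near share of 60.3% against 65.5% for the other hepatocyte genes in section 1, and 53.0% against 55.6% in section 2. The within-cell log2 odds ratio was -0.41 (-0.49 to -0.33) in section 1, over 63540 and 12996 transcripts, and -0.28 (-0.36 to -0.20) in section 2, over 75433 and 13045. Without Hp and Igfbp2, the most abundant genes of the list in section 2, it was -0.38 and -0.24. In the 2676 and 10390 hepatocyte-marker cells that held no count of any other class's markers, it was -0.62 (-0.78 to -0.45) and -0.32 (-0.42 to -0.22). This contrast was chosen after other results had been seen, and it has no test beyond these intervals. The plasma protein genes were also the more abundant group. Over 162 genes in hepatocyte-marker cells, Spearman's rho between the odds ratio and a gene's transcript total was -0.18 and -0.41 in sections 1 and 2. The part of abundance in the contrast was not tested.

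Among single hepatocyte markers, measured against all other genes in hepatocyte-marker cells (24.7% of 162 genes above 0 and 6.79% below 0 in both sections), 5 of 7 plasma protein genes with enough transcripts had intervals below 0 in both sections and 0 of 12 others did. Their medians were -0.44 and -0.28 in sections 1 and 2, against -0.01 and -0.06 for the others. Over all 162 genes the medians were 0.27 and 0.30. In section 1 the 12 others had fewer transcripts and wider intervals than the 5, which bears on how many intervals exclude 0. Among the 12, Cyp2f2, of the list of endoplasmic reticulum enzymes, stood at -0.36 (-0.67 to -0.04) in section 1. In section 2 it stood at -0.28 (-0.76 to 0.20), at the median of the plasma protein genes. G6pc alone of the hepatocyte markers had intervals above 0 in both, at 0.33 and 0.54. Pck1, the cytosolic enzyme that commits carbon to glucose synthesis, stood at 0.32 (0.16 to 0.48) in section 1 and at 0.04 (-0.14 to 0.23) in section 2. Gulo, an enzyme of vitamin C synthesis in the endoplasmic reticulum, stood at -0.38 in section 1 and -0.08 in section 2, and Cyp2e1, a drug-metabolising enzyme of the same membrane, at -0.08 and -0.43. The nuclear regulators Hnf4a, at -0.01 and 0.10, and Cebpa, at -0.05 and 0.17, lay close to 0 and below the medians of the 162 genes.

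The distance at which zones begin is fixed, so small cells hold little beyond 6 µm. Cells of each section were split into 3 equal groups by volume. In the smallest cells 98.0% of the compared transcripts of section 1 and 93.8% of those of section 2 were near, and in the largest 42.5% and 26.5%. The within-cell log2 odds ratio of the secreted genes together was negative in every group. In section 1 it was -0.33 (-0.54 to -0.12), -0.48 (-0.55 to -0.42) and -0.70 (-0.75 to -0.66) from the smallest to the largest cells. In section 2 it was -0.27 (-0.39 to -0.15), -0.49 (-0.55 to -0.43) and -0.66 (-0.71 to -0.60). In both sections the interval of the largest cells lay apart from that of the smallest, on the same side of 0.

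**Figure D2:**
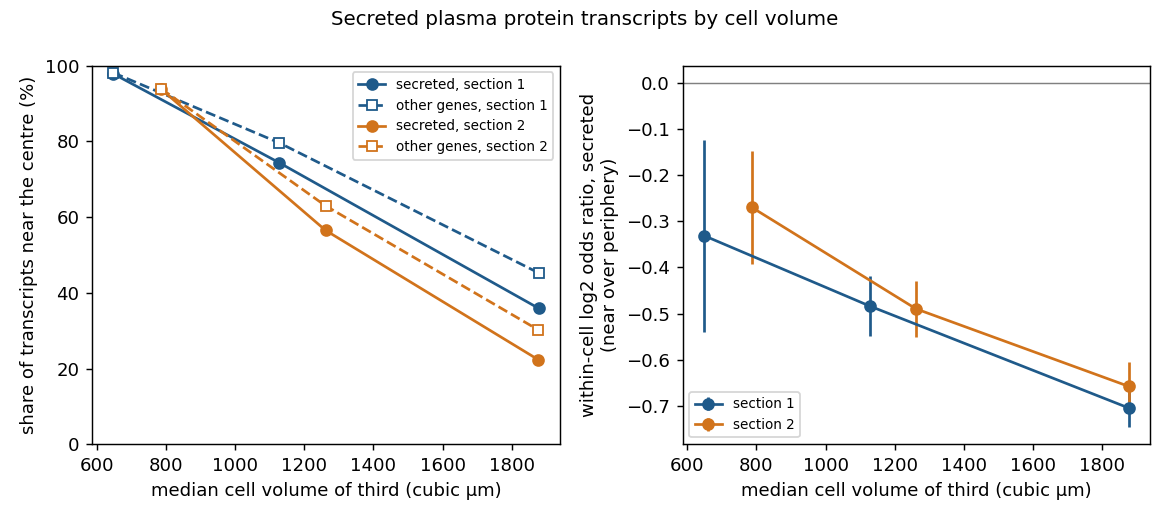
Share of compared transcripts near the centre for secreted plasma protein genes and for other genes (left, %) and within-cell log2 odds ratio of secreted plasma protein genes against all others (right) by the median volume of 3 equal groups of cells (x axis, cubic µm), with 1 colour per section and, on the right, bars for 95% intervals of counting error. In section 1 near shares fall from 97.8% to 35.9% for secreted and from 98.1% to 45.2% for other genes. In section 2 they fall from 93.7% to 22.3% and from 93.9% to 30.2%. The odds ratio lies below 0 in all 6 points.

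Cells were given a class by the marker list that held most of their counts, with at least 3 such counts. Hepatocyte-marker cells were 75.4% of the kept cells of section 1 and 90.0% of those of section 2, and all other classes together came to 834 and 457 cells. In hepatocyte-marker cells alone, 6 of 361 genes passed edgeR without the within-cell offset (1.66%), 3 in each direction (0.831%). Of 14 plasma protein genes tested there 0 passed, with a median of -0.20 against -0.01 over all genes tested. Hp and Igfbp2 both stood at -0.25 (edgeR adjusted p = 0.11 for each) and F2 at -0.23 (edgeR adjusted p = 0.14). Col1a1 was peripheral, with 458 near and 554 peripheral transcripts in section 1 and 291 and 341 in section 2, at a log2 change of -0.89 (SE 0.13, edgeR adjusted p = 1.2e-08). Its single sections gave -1.14 and -0.60, further apart than that SE. Ctsb at -0.42 (SE 0.09) and Cd74, the invariant chain of antigen-presenting cells, at -0.55 (SE 0.16) were peripheral too. Ushbp1 at 0.53 (SE 0.14), Lrp5 at 1.04 (SE 0.27) and the hyaluronan receptor gene Cd44 at 1.33 (SE 0.38) were central, and Hc, which encodes complement C5, lay just outside the threshold (edgeR adjusted p = 0.067). Within cells, Ctsb stood at 0.13 and 0.07 and Cd74 at 0.05 and 0.55 by the odds ratio, all above 0. The median gene of these cells stood at 0.27 and 0.30 on that scale. Relative to it Ctsb was still on the peripheral side in both sections, and Cd74 in section 1 alone. Col1a1 stayed negative, at -0.55 and -0.37. With the within-cell offset as in the previous test, 66 genes were called central and 3 peripheral in these cells.

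Transcripts of other cell types in hepatocyte-marker cells did not all lie at the edge. By the within-cell odds ratio B-lineage markers stood at 1.06 (0.85 to 1.28) in section 1 and 1.67 (1.32 to 2.03) in section 2. Monocyte and neutrophil markers stood at 0.91 and 1.16, erythroid markers at 0.75 and 0.67, and macrophage markers at 0.33 and 0.40. Stellate and mesenchymal markers lay on the other side, at -0.37 (-0.58 to -0.17) and -0.25 (-0.52 to 0.02), and hepatocyte markers stood at -0.55 and -0.50. The median gene of these cells stood at 0.27 and 0.30, close to the macrophage markers. Near shares gave a different order. Erythroid markers had 62.4% and 47.7% near and macrophage markers 59.1% and 56.3%, against 62.0% and 54.2% of all genes in these cells. B-lineage markers had 62.9% and 61.6%, and monocyte and neutrophil markers 67.2% and 65.7%. Transcripts of other cell types were few beside 76536 and 88478 compared transcripts of hepatocyte markers, with 1110 and 438 of B-lineage and 2435 and 923 of erythroid markers. In the hepatocyte-marker cells with no count of other classes' markers, 11 of the 42 central genes had intervals above 0 in both sections, against 15 of all 183 genes. A positive value in both was found for 31 of the 42 and for 100 of the 183. The medians over all genes compared in these cells were 0.41 and 0.30. These cells are among those in which the 42 genes were picked, so this is a description and no support. There Ushbp1 stood at 1.05 (0.28 to 1.82) and 1.74 (1.25 to 2.23), Pim1 at 1.13 and 2.26 and Zc3h4, which encodes a zinc finger protein, at 1.94 and 0.73.

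In erythroid-marker and B-lineage-marker cells a larger share of the class's own markers than of hepatocyte transcripts was near the centre. In erythroid-marker cells 73.6% of erythroid marker transcripts were near in section 1 and 81.8% in section 2, against 37.8% and 36.8% of hepatocyte marker transcripts and 64.1% and 73.8% of all transcripts of these cells. By the within-cell odds ratio their own markers stood at 0.44 (0.18 to 0.69) in section 1 and at -0.18 (-0.72 to 0.36) in section 2, where they were not measurably central, and the hepatocyte markers at -1.70 and -1.22. In B-lineage-marker cells of section 1 these shares were 89.0% and 39.3%, and in section 2 the own markers stood at 82.7%. Macrophage-marker and endothelial-marker cells of section 1 were alike, with 76.2% and 78.8% of own markers near against 58.4% and 62.3% of hepatocyte markers. Their hepatocyte markers, 113 and 154 transcripts, stood at -0.72 and -1.63 by the odds ratio and their own at 0.14 and -0.20. Stellate-marker cells differed less, with 58.6% and 58.5% of their own markers near against 51.8% and 46.8% of hepatocyte markers. The hepatocyte transcripts in these cells were few, with 299 and 68 in erythroid-marker, 262 in B-lineage-marker and 427 and 188 in stellate-marker cells. Classes were assigned from the same marker counts, so the number of own markers is fixed by the rule, but not where in the cell they lay.

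**Figure D3:**
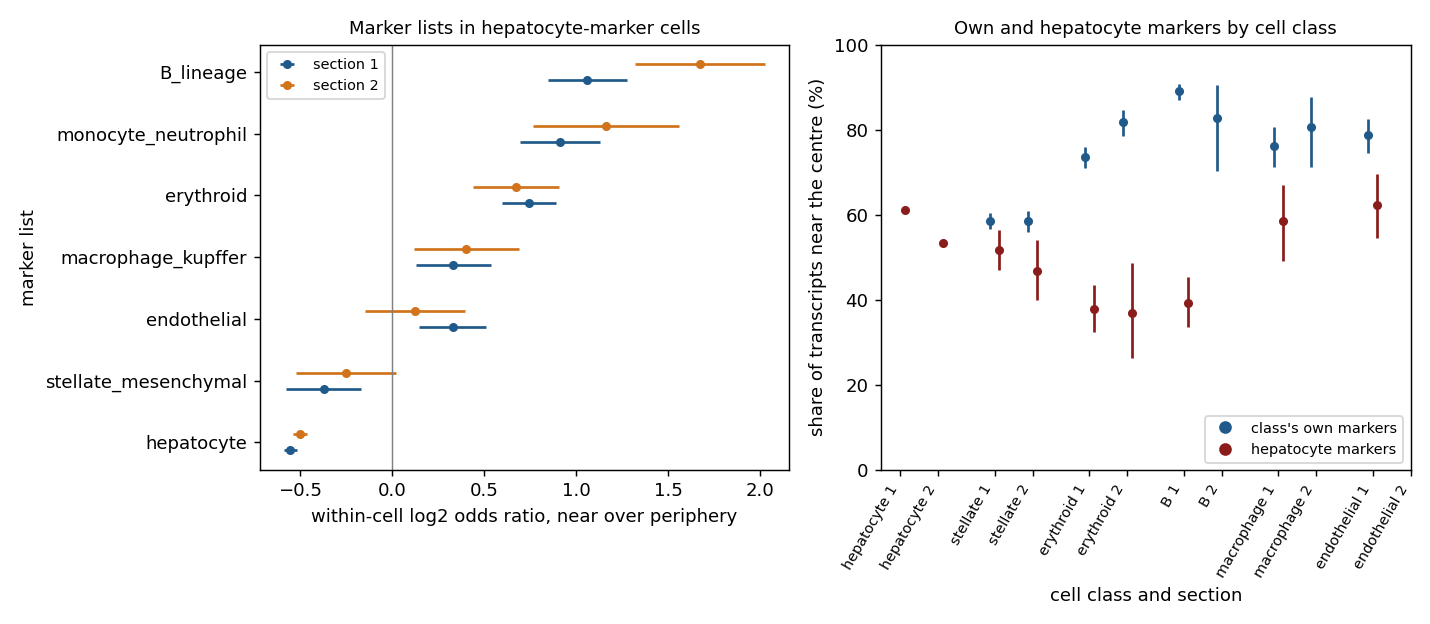
Left, within-cell log2 odds ratio of near over peripheral transcripts (x axis) of 7 marker lists in hepatocyte-marker cells; right, share of transcripts near the centre (y axis, %) of each class's own markers and of hepatocyte markers by cell class and section, where at least 30 transcripts were compared. Points are sections and bars 95% intervals of counting error; in erythroid-marker and B-lineage-marker cells the own markers lie above 70% and the hepatocyte markers below 40%.

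Over the other classes pooled, edgeR called 0 of 75 genes and 9 had an unadjusted p under 0.05, while DESeq2 called 0 with 7. Ighm came first, with 707 near and 93 peripheral transcripts in section 1 and 31 and 9 in section 2, at 1.72 (SE 0.45, edgeR adjusted p = 0.091). The difference between hepatocyte-marker cells and the others was tested as an interaction of zone and class, with 2 residual degrees of freedom, and 7 of 74 genes passed (9.46%), 4 more central in hepatocyte-marker cells (5.41%) and 3 in the others (4.05%). Hp had a near share of 59.5% and 53.2% in hepatocyte-marker cells against 48.3% and 42.9% in the others, an interaction of 0.79 (SE 0.19, edgeR adjusted p = 0.014). Igfbp2 at 1.12 (SE 0.27), Fgb at 1.08 (SE 0.32) and Ambp at 1.60 (SE 0.44) were likewise more central in hepatocyte-marker cells. Ighm at -1.71 (SE 0.35), Spib, a transcription factor of B cells, at -1.87 (SE 0.39) and Klf1, the erythroid transcription factor, at -1.60 (SE 0.42) were more central in the other classes, and Cd74 lay just outside the threshold (edgeR adjusted p = 0.088). Hp, Igfbp2, Fgb, Ighm and Klf1 are themselves markers from which the classes were assigned. The cells on either side of the test were thus picked by counts of these genes, and the part of that in the differences was not tested. Each of the 7 genes had the same direction in both sections, Klf1 with -0.54 and -2.89. With the within-cell offset 0 of these genes passed (13 of 74 at an unadjusted p under 0.05). Hp then stood at 0.56 and Klf1 at 0.32, which for Klf1 is the opposite sign. The median of the 74 genes was 0.30 with the offset and -0.19 without it, so with the offset Klf1 lay close to the typical gene.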

How the data were processed

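Sections were imaged on the Vizgen instrument, per the labels' protocols. The authors deposited, per the file headers, a list of decoded transcripts with position, plane and cell, and cell tables with centre, volume and a transcript count. The software for decoding and segmentation is not given in the sources used here, and no unit of length is named, so µm was assumed. Deposited counts were not used for tests; transcripts were recounted per gene, section and zone.

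The members, gene lists and classes were chosen with earlier results of these data known. Raw sums (4, or 8 for the interaction) were tested in edgeR 4.0.16 (TMM, section as a block, at least 50 transcripts in all and 10 in each section, Benjamini-Hochberg at 0.05). The block is where pairing comes from, since both zones lie in the same section. SE is the log2 change over the square root of F. Odds ratios were computed in Python 3.11.15 with pandas 2.3.3, with Robins-Breslow-Greenland errors. Intervals cover counting error only. Genes named from edgeR fits are, by rule, those with the largest and smallest changes, with members of short lists and the genes at the threshold; those named from odds ratios and classes were chosen after their values were seen.

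On simulated data 50.0% of genes changed by 0.5 (log2) and 92.7% of those changed by 1.0 were recovered for all kept cells, with 1.54% of unchanged genes called. For other-marker cells these values were 47.4%, 55.6% and 5.26%. The simulation gave every gene the same fixed spread and changed 194 of 389 genes, evenly up and down, for all kept cells. It therefore does not measure how real spread or the scaling alters the calls. DESeq2 1.42.0, other zones, filters, planes and offsets were tried as alternatives.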

Additional observations from a re-analysis of the deposited data

Results flagged for a closer look

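The near against peripheral change differed between hepatocyte-marker cells and cells of other marker classes for 7 genes, by the interaction term of edgeR. The differences, hepatocyte-marker minus other, were 1.60 for Ambp, 1.12 for Igfbp2, 1.08 for Fgb and 0.786 for Hp, and -1.60 for Klf1, -1.71 for Ighm and -1.87 for Spib. Hepatocyte-marker cells numbered 6945 and 14654 and the others 834 and 457 in sections 1 and 2. All of them but Ambp and Spib are markers from which the cell classes were assigned, so their own counts helped to pick the cells compared. Spib did not exceed the highest blank in both sections. Cells of other classes had a median volume of 1370 against 1124 cubic µm in section 1 and of 1197 against 1264 in section 2, and the part of cell size in these differences was not tested beyond the alternatives given in the next paragraph.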

How the results depend on the processing

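Counts of calls depended strongly on the setting, while the directions of the genes called in all kept cells (10 genes) and with the within-cell offset (50 genes) were kept wherever those genes were tested. In all kept cells the 10 calls (0 central, 10 peripheral) became 16 with DESeq2 (1 and 15, with all 10 retained), 36 with library totals (36 and 0, with 0 retained), 20 with at least 200 transcripts (7 and 13, with 10 retained), 9 with at least 1 (7 and 2, with 1 retained), 15 with zones of 3 and 7 µm (10 and 5, with 4 retained), 6 with a single boundary at 5 µm (5 and 1, with 0 retained), 17 with distance relative to cell size (3 and 14, with 10 retained), 23 with volume groups as blocks (15 and 8, with 1 retained), 4 in the lowest plane (2 and 2, with 2 retained), and 0 in cells with at least 20 counts, in cells with at least 2 transcripts in each zone and in the middle planes (50, 47 and 43 at an unadjusted edgeR p under 0.05; DESeq2 was not run there). The 50 calls with the offset became 16 with DESeq2, 15 with at least 200 transcripts, 9 with zones of 3 and 7 µm, 84 with the split of the other genes alone, and 0 with at least 1 transcript and in the lowest plane. The 6 calls in hepatocyte-marker cells became 19 with DESeq2, 25 with library totals, 20 with at least 1 transcript, 3 with zones of 3 and 7 µm, 60 with relative distance, 1 with at least 20 counts, 28 with at least 2 in each zone, 10 without transcripts nearer to another centre, 19 with at least 5 marker counts, 69 with the offset, and 0 in the lowest plane and in cells without other markers. The 0 calls in other classes became 2, 3, 8, 3, 3, 4, 1 and 2 with at least 1 transcript, zones of 3 and 7 µm, relative distance, no transcripts nearer to another centre, middle planes, volume groups, at least 5 marker counts and the offset. The 7 interaction calls became 4 with DESeq2, 4 with zones of 3 and 7 µm, 4 with a boundary at 5 µm, 4 without transcripts nearer to another centre, 11 with at least 1 transcript, 3 with at least 200, 3 with at least 2 in each zone, 3 in the lowest plane, 1 with at least 5 marker counts, and 0 with at least 20 counts, middle planes, volume groups and the offset.

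Without the section as a replicate block, 0 genes passed in all kept cells (0 at an unadjusted p under 0.05), 0 in hepatocyte-marker cells (1 unadjusted) and 0 in the interaction (1 unadjusted), and 62 passed with the offset. Signs reversed for Ushbp1 (-0.0288, lowest plane), Cd74 (0.159, offset) and Ctsb (0.0569, offset) in hepatocyte-marker cells, and for Klf1 in the interaction (0.16 in the lowest plane, 0.32 with the offset). With the offset the median gene stood at 0.24 in hepatocyte-marker cells and at 0.30 in the interaction. The offset values of Cd74, Ctsb and Klf1 are to be read against those medians. The causes of the reversals were not tested. Leaving out a section leaves no residual degrees of freedom, so the values of single sections are given without a test. Beside the blocks, 2 sections, a median of 27 and 15 counts per cell and assumed units limit all values.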
